A study of Mus musculus with 12 samples.

Results

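The Nlrp genes studied here are 10 mouse genes of the NOD-like receptor family that are known for their expression in the oocyte: Nlrp2, Nlrp4a, Nlrp4b, Nlrp4c, Nlrp4e, Nlrp4f, Nlrp5, Nlrp9a, Nlrp9b and Nlrp9c. They were taken by symbol from the 21523 protein-coding genes that the RefSeq annotation of GRCm38 (mm10) places on chromosomes 1 to 19 and X. The set was chosen by their overlap with H4K20me3 domains, so that overlap is given as a description. Their bodies were set against the 1 deposited list of 28210 H4K20me3 domains, which carries positions only. H4K20me3 had been profiled by ChIP-seq in the mouse embryonic stem cell line dTKO, in 12 libraries. All groups shared the genotype Suv39h1fl/fl, Suv39h2-/-, Setdb1fl/fl and the labelled treatment + auxin + dTAG13, at 100 μg/ml and 0.5 μM. The groups were 0, 12, 24 and 48 h of treatment, with 3 replicates each. Auxin and dTAG13 are ligands that trigger degradation of proteins fused to matching tags. The 3 genes in the genotype encode H3K9 methyltransferases. The labels name 1 line and do not say which proteins were tagged or whether the line is 1 clone.

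The domain list names no sample and no time, and the sources used here do not say on which libraries it was called. It therefore gives no change over time, no depth and no replicate error, and every value below describes that list without a test. Stem-cell identity could not be checked against markers, since no expression was measured.

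NLRP proteins are intracellular proteins with a nucleotide-binding NACHT domain and a run of leucine-rich repeats. Some, such as NLRP3, assemble inflammasomes in immune cells, while a mammalian subgroup expanded by gene duplication is made in the oocyte and stored for the early embryo. Nlrp5, also called Mater, is the classical maternal-effect gene of this subgroup and part of the subcortical maternal complex of the egg cortex. H4K20me3 is a histone mark of silent chromatin that is laid down by the SUV4-20H enzymes, which are brought to H3K9me3 chromatin through HP1 proteins.

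Promoter sequences show how close some of these copies are and where the domains separate them. The RefSeq promoter table (GRCm38.p6, 250 bases before to 50 bases after a transcript start) held 13 promoters for the 10 genes, and every gene had at least 1. Of the 13, only that of Nlrp9c met a domain, with all 300 bases inside. Over the whole table, 1.96% of 32619 promoters met a domain. Nlrp9a, a neighbouring copy of Nlrp9c, had the promoter most like it: 253 bases aligned, and 246 of them were identical (97.2%). The Nlrp9a promoter lay 27.2 kb from the nearest domain. Both are printed 5′ to 3′ on the gene's own strand because they form the closest pair in the family and differ in the mark. Capitals mark bases that are aligned and identical in the other promoter. Nlrp9c is at chr7:26403651-26403950 on the minus strand and Nlrp9a at chr7:26534773-26535072 on the plus strand.
Nlrp9c: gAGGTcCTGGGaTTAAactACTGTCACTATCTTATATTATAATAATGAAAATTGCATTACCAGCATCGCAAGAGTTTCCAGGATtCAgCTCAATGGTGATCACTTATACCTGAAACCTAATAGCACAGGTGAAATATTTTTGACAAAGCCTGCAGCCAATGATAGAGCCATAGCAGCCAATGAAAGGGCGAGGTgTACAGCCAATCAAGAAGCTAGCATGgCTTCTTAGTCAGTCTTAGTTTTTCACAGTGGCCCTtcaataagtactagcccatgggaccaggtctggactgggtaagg
Nlrp9a: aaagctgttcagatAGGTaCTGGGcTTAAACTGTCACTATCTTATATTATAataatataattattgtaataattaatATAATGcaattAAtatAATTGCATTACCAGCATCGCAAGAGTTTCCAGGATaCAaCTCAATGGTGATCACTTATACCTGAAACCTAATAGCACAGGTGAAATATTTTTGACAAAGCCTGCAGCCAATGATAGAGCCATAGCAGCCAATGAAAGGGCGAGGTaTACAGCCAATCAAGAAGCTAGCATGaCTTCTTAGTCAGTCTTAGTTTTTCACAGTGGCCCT
The capitals run almost unbroken through the later part of the Nlrp9a promoter and on past its start, and a stretch rich in A and T near the 5′ end of the Nlrp9a promoter has no counterpart in Nlrp9c. Reads from such near-identical stretches may map to either copy, and the sources used here do not say how the authors treated reads with several matches.

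By number of identical bases, a pair of Nlrp4 promoters was the next most alike, with 229 of 281 aligned (81.5%). Some shorter alignments had a higher percentage, such as Nlrp4f with the second Nlrp4a promoter (41 of 45, 91.1%). The promoter of Nlrp4c, a gene that also met a domain, was nearly as close to that Nlrp4a promoter (210 of 260, 80.8%). The Nlrp4b and Nlrp4a pair is shown because the body of Nlrp4b met a domain and that of Nlrp4a met none. Neither promoter was itself in a domain: the nearest one was 2.29 kb from the Nlrp4b promoter and 22.6 kb from the Nlrp4a promoter. Capitals again mark the bases shared within the pair. Nlrp4b is at chr7:10687543-10687842 and the second of the 2 Nlrp4a promoters at chr7:26435364-26435663, both on the plus strand.
Nlrp4b: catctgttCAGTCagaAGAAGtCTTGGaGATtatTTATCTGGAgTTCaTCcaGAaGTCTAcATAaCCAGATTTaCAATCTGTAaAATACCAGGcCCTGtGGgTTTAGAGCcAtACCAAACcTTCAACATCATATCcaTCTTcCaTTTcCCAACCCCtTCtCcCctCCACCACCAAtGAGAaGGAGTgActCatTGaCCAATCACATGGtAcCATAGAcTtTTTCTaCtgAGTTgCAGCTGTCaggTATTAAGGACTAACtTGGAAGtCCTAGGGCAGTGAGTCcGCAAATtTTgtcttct
Nlrp4a: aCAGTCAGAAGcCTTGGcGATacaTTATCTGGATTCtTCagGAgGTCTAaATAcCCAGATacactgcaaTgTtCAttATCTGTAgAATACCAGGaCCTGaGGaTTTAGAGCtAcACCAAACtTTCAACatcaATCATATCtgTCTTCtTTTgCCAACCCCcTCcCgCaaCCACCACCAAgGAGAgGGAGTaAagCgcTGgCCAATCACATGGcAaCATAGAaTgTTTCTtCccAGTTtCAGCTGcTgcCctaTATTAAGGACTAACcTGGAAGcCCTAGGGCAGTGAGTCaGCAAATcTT
Across all 75 pairs of promoters from different genes, the median number of identical bases was 144. The 13 promoters held 0 to 9 CG dinucleotides, against a median of 7 in all promoters (quartiles 3 and 20). Only the first Nlrp5 promoter, with 9, was above that median. The Nlrp4c promoter had 7, and all others had 5 or fewer. The sequence TAATTG, searched on both strands as the core of sites bound by the oocyte homeobox factor NOBOX, occurred in 2 of the 13, with 2 matches in the Nlrp9a promoter and 1 in the Nlrp9b promoter. It was present in 8.02% of all promoters. Nlrp9c had no match in this window.

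The 10 genes divided evenly, with 5 that met a domain and 5 that met none. Nlrp4b, Nlrp4c, Nlrp4e, Nlrp9b and Nlrp9c shared at least 1 base with a domain, while Nlrp2, Nlrp4a, Nlrp4f, Nlrp5 and Nlrp9a did not. Of all protein-coding genes, 14.1% met a domain. The closer background by length is the 4262 other protein-coding genes between 28.6 and 71.6 kb, the range of the members. Of these, 16.6% met a domain. On chromosome 7, where all members but Nlrp4f lie, 20.7% of the 271 other genes in that range did. Because the members were proposed with these overlaps known, nothing is read from the gap between 5 of 10 and these shares. By name, 3 of the 5 Nlrp4 genes and 2 of the 3 Nlrp9 genes met a domain, but neither Nlrp2 nor Nlrp5 did. The domains covered 44.95 kb, or 9.15% of all member sequence, against 1.76% of the sequence of the other genes in that length range. For those of the other genes on chromosome 7 the share was 2.37%. The median covered share was 3.75% for the members and 0 for the other genes.

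Nlrp4e had the largest covered share of the 10 annotated bodies (chromosome 7, 23301192 to 23362277, plus strand, 61.1 kb). With 5 kb added on each side Nlrp9c ranked first, at 35.4%, and Nlrp4e had 20.1%. Its 3 domains together covered 13.7 kb, which was 22.3% of the body. The widest began 6.41 kb after the annotated 5′ end and spanned 10.2 kb (23307601 to 23317800), wider than 93.1% of the list. Most of the mark on this gene was thus in its 5′ part. The other two were short, at 1.65 kb (23332951 to 23334600) and 1.80 kb (23356501 to 23358300). The last of them also lay over Krt8-ps, a keratin pseudogene within the Nlrp4e body, which was 71.6% covered.

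Nlrp9b, a gene also known for an inflammasome role in the intestinal epithelium, was covered over 21.0% of its 71.6 kb (chromosome 7, 19991393 to 20062942, plus strand). It was the longest member, and its 3 domains were of like size, with 5.85 kb at 19993201 to 19999050, 4.05 kb at 20036101 to 20040150 and 5.10 kb at 20056051 to 20061150. They stood near the 5′ end, past the middle and near the 3′ end. The promoter that RefSeq lists for Nlrp9b belongs to a start 16.6 kb inside the annotated body, so the first domain lies before that start. Counted from there, Nlrp9b had 2 domains and 16.7% of 54.9 kb covered, a reckoning chosen after the values were seen.

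Nlrp9c was covered over 20.3% of its 39.0 kb (chromosome 7, 26364691 to 26403700, minus strand). Inside the body lay domains of 3.15 kb (26373151 to 26376300) and 4.65 kb (26388901 to 26393550). The third, of 9.15 kb (26403601 to 26412750), covered the annotated start and reached 9.05 kb upstream, with only 100 bases inside the body. That overlap is shorter than the grid of 150 bases on which the domain boundaries lie, but all of the promoter printed above is within this domain. Another domain began 0.540 kb beyond the 3′ end. Nlrp9c was the only member with a domain within 1 kb of either gene end, and it had one at both.

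Nlrp4b and Nlrp4c carried less. Nlrp4b (chromosome 7, 10687793 to 10730168, plus strand, 42.4 kb) had 1 domain of 3.90 kb at 10704001 to 10707900, or 9.20% of its body. Nlrp4c (chromosome 7, 6045161 to 6105149, plus strand, 59.99 kb) had a pair of 2.25 kb each, at 6080101 to 6082350 and 6085201 to 6087450, or 7.50%. Both genes held their domains in the interior, 16.2 kb or more from the 5′ end. With exons not given in the annotation used, exonic and intronic parts of the domains cannot be told apart.

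**Figure D1:**
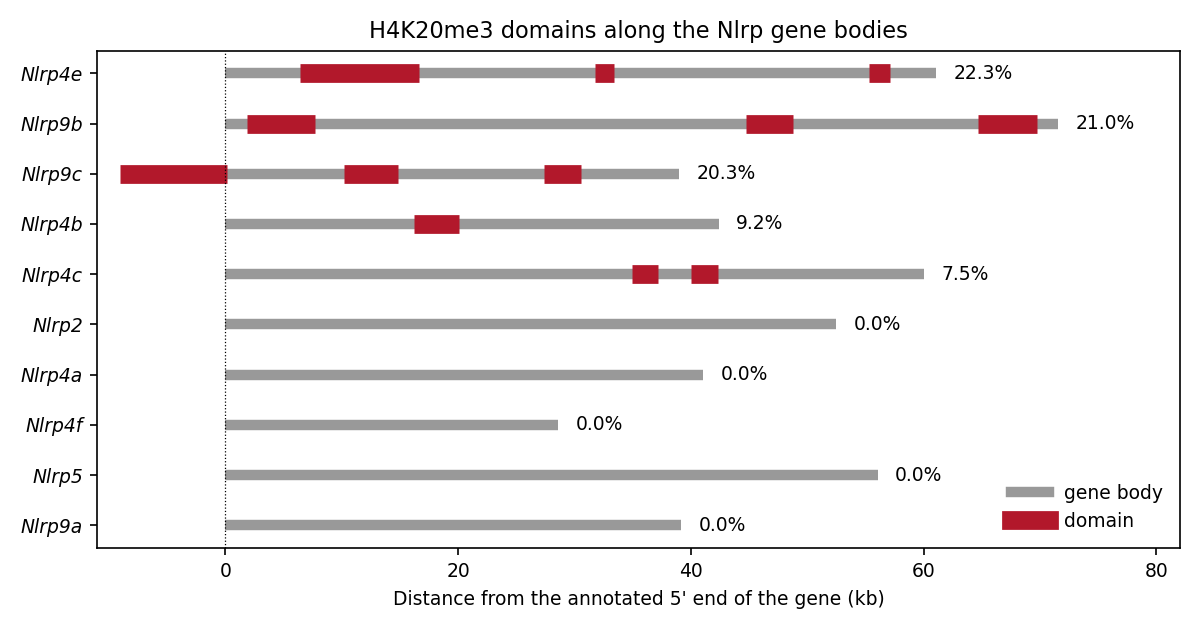
Gene bodies of the 10 members (grey), drawn from the annotated 5′ end in kb, with the H4K20me3 domains that meet them (red) and the covered share of each body at the right. Domains cover 20.3 to 22.3% of Nlrp9c, Nlrp9b and Nlrp4e, 7.50 to 9.20% of Nlrp4c and Nlrp4b and none of the other 5, and 1 domain of Nlrp9c extends 9.05 kb beyond the 5′ end.

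The 5 genes without a domain were not all far from one. Nlrp5 (chromosome 7, 23385889 to 23441923, plus strand, 56.0 kb) was the closest, with a domain 1.28 kb beyond its 3′ end, and Nlrp4a (chromosome 7, 26435113 to 26476142, plus strand, 41.0 kb) had one 4.41 kb beyond its 3′ end. On the upstream side these 2 genes were free of domains for 27.6 and 22.4 kb. Among the genes that met a domain, Nlrp4b had the fewest covered bases, 3.90 kb, well above the threshold of 1 base. Nlrp2, a maternal-effect gene (chromosome 7, 5298547 to 5351035, minus strand, 52.5 kb), was 14.9 kb from the nearest domain, and Nlrp9a (chromosome 7, 26535023 to 26574148, plus strand, 39.1 kb) was 16.4 kb away. Nlrp4f (chromosome 13, 65177111 to 65205716, minus strand, 28.6 kb), the shortest member and the only one off chromosome 7, was 36.2 kb from any. The median length was 60.0 kb for the 5 genes with a domain and 41.0 kb for the 5 without, but the lengths overlapped. Nlrp9c (39.0 kb) and Nlrp4b (42.4 kb) met domains, while Nlrp5 (56.0 kb) and Nlrp2 (52.5 kb) met none. The part of length in the result was not tested.

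In all, 12 domains met the members, and 11 of them lay wholly inside a body. Their widths ran from 1.65 to 10.2 kb with a median of 3.98 kb, where the whole list has a median of 3.00 kb and quartiles of 1.80 and 4.80 kb. By their midpoints, 5 of the 12 fell in the 5′ part of the gene or before it and 7 in the 3′ part, so the domains were not gathered at one end. No other annotated gene overlapped 11 of the 12. Nlrp4e, Nlrp9b and Nlrp9c had 3 domains each, and 0.798% of the 4262 other genes in the length range had 3 or more. The same 3 members had a covered share of 20% or more, as had 2.39% of those genes. Of the genes in that range on chromosome 7, 1.48% had 3 or more domains. The third domain of Nlrp9c shared only 100 bases with its body. Counted from its promoter-table start, Nlrp9b had 2 domains and 16.7% covered. Since the members were chosen with the overlap known, nothing is read from these shares either.

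The members formed 6 clusters when those less than 1 Mb apart were joined, 5 of them on chromosome 7 between 5.30 and 26.6 Mb. Nlrp4b, Nlrp9b and Nlrp4f each stood alone and are counted as clusters of 1 member. Nlrp2 and Nlrp4c were joined across 694.1 kb, with 9 other protein-coding genes between them. Domains were dense in the chromosome 7 stretches. In the 1 Mb centred on each chromosome 7 member there were 15 to 37 domains, and around Nlrp4f there were 12, where the median 1 Mb window of chromosomes 1 to 19 and X held 9 (quartiles 6 and 15). The covered share of that 1 Mb ran from 6.53% around Nlrp4e to 23.0% around Nlrp9a on chromosome 7, and it was 3.12% around Nlrp4f. From 3 Mb onward chromosome 7 as a whole was covered over 4.90% and chromosome 13 over 5.21%. A dense neighbourhood did not go with a covered gene in every case: Nlrp4a and Nlrp9a, without a domain, had 31 and 32 domains around them, while Nlrp4e, with the largest covered share of its annotated body, had 15. The median was 27 domains around the 5 genes that met one and 20 around the 5 that did not. These counts include the domains on the genes themselves, and the windows of neighbouring members overlap, so nothing is read from this difference.

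Within the clusters, the sequence between genes carried more of the mark than the Nlrp bodies. The 6 clusters with 100 kb on either side spanned 2499 kb and held 80 domains, which covered 15.4%. Member bodies were covered over 9.15% and other genes, pseudogenes and noncoding genes included, over 7.73%. Sequence outside any annotated gene was covered over 18.9%, which made up 313.8 of the 385.8 covered kb. The pooled order of members and other genes rests on the Nlrp9b cluster, where 21.0% of member sequence and 4.99% of other gene sequence lay in domains. In each of the other 5 clusters the other genes had the larger share, as around Nlrp9c, Nlrp4a and Nlrp9a, with 6.63% of member and 30.6% of other gene sequence. Intergenic sequence had a larger share than the members in 5 of the 6 clusters. The exception was Nlrp4e with Nlrp5, where 11.7% of member sequence and 10.5% of intergenic sequence lay in domains.

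Neighbouring members often differed. Nlrp4e and Nlrp5 lie 23.6 kb apart with no domain between them, and 3 domains fell on the first and none on the second. Along 209.5 kb, Nlrp9c had 3 domains and its neighbours Nlrp4a and Nlrp9a had none. The gap from Nlrp9c to Nlrp4a (31.4 kb) was 28.8% covered, and the gap from Nlrp4a to Nlrp9a (58.9 kb) was 35.4% covered by 2 domains, the wider of 18.9 kb. Domains thus lay on both sides of Nlrp4a and Nlrp9a but not in their bodies. Nlrp2 and Nlrp4c stand 694.1 kb apart, across 29 domains that covered 20.2% of the gap. Nlrp4b had 11 domains within its window, of which 1 was in the gene. Nlrp9b had 13, including one of 22.1 kb beyond its 3′ end, and Nlrp4f had 3, none of them in the gene.

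**Figure D2:**
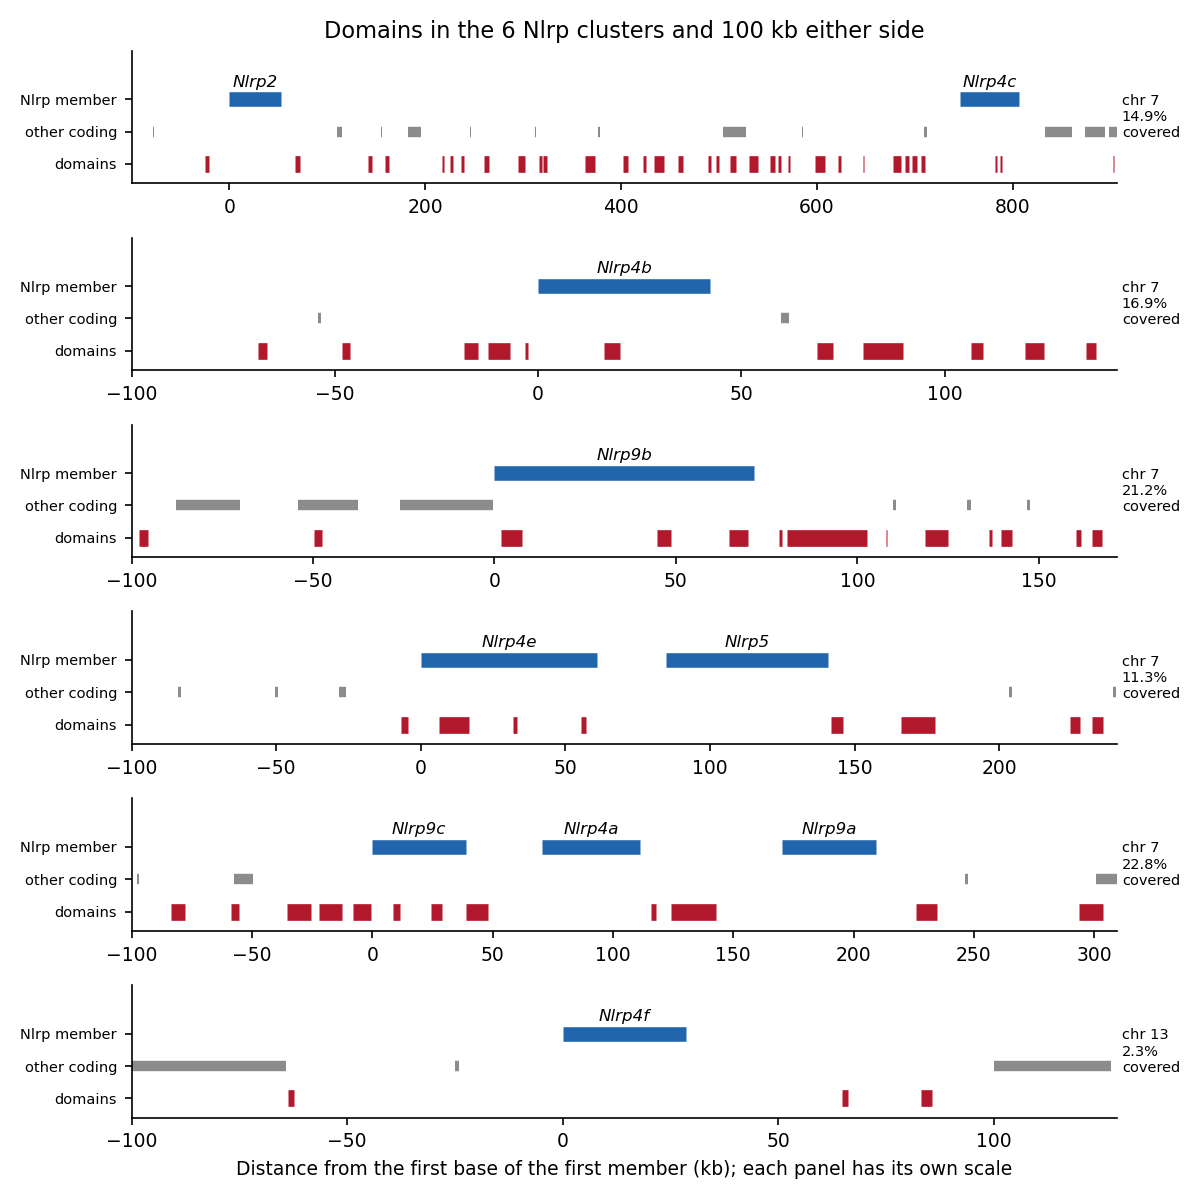
The 6 clusters, each with 100 kb on either side and its own scale in kb from the first base of its first member, showing members (blue), other protein-coding genes (grey) and domains (red). Those of Nlrp4b, Nlrp9b and Nlrp4f hold 1 member each. The share of each window in domains is lowest around Nlrp4f, with 3 domains, and reaches 22.8% around Nlrp9c, Nlrp4a and Nlrp9a, and many domains fall between genes.

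The genes beside the members were mostly short vomeronasal receptor genes, which encode pheromone receptors. Of 33 other protein-coding genes in the 6 windows, 21 were named Vmn1r or Vmn2r, and 2 of these met a domain, namely Vmn1r63 (24.5% covered) and Vmn1r65 (24.6%). The other protein-coding genes that met one were Galp, Igsf23, Cyp2a4 and Cyp2b23, so 6 of the 33 did. Among 41 pseudogenes, 9 met a domain. The shares over all pseudogenes and over genes of like length are not given, so nothing is read from these counts.

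Other protein-coding genes of these regions with a length like that of the members also met domains, some over larger shares. Of 77 such genes, within 2 Mb of a member and with 0.5 to 2 times its length, 15 (19.5%) met a domain and 2 had 3 or more. Their median length was 27.6 kb, against 47.4 kb for the members, so the match in length is loose. The part of length in their share was not tested. Their sequence was covered over 3.42%. By member, this share ran from 0 for the local genes of Nlrp9b, Nlrp4e and Nlrp5 to 6.44% for Nlrp4b and 6.96% for Nlrp4c. It was 2.62 to 2.79% for those of Nlrp9c, Nlrp4a and Nlrp9a. For Nlrp2 and Nlrp4f, themselves without a domain, it was 4.74 and 3.98%. Of the 77 genes, 6 had a covered share of 20% or more. The largest shares were in Ceacam2, a cell adhesion gene (43.6%, 1 domain), Zfp850, a zinc finger gene (35.8%, 1 domain), 2410141K09Rik (30.0%, 2 domains) and Vmn2r56 (25.5%, 3 domains). Nlrp9c, with 20.3%, was exceeded by 2 of its 37 local genes. Nlrp4b was exceeded by 2 of 9 and Nlrp4c by 2 of 6. Nlrp4e and Nlrp9b were above all of theirs, but only 3 and 1 genes were available, and none of these met a domain. For Nlrp2, Nlrp4a, Nlrp9a and Nlrp4f, which had no domain, 2 of 11, 5 of 34, 5 of 36 and 5 of 16 local genes met one, and for Nlrp5 none of 3 did. Many of the local genes serve several members, so these counts are not independent.

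**Figure D3:**
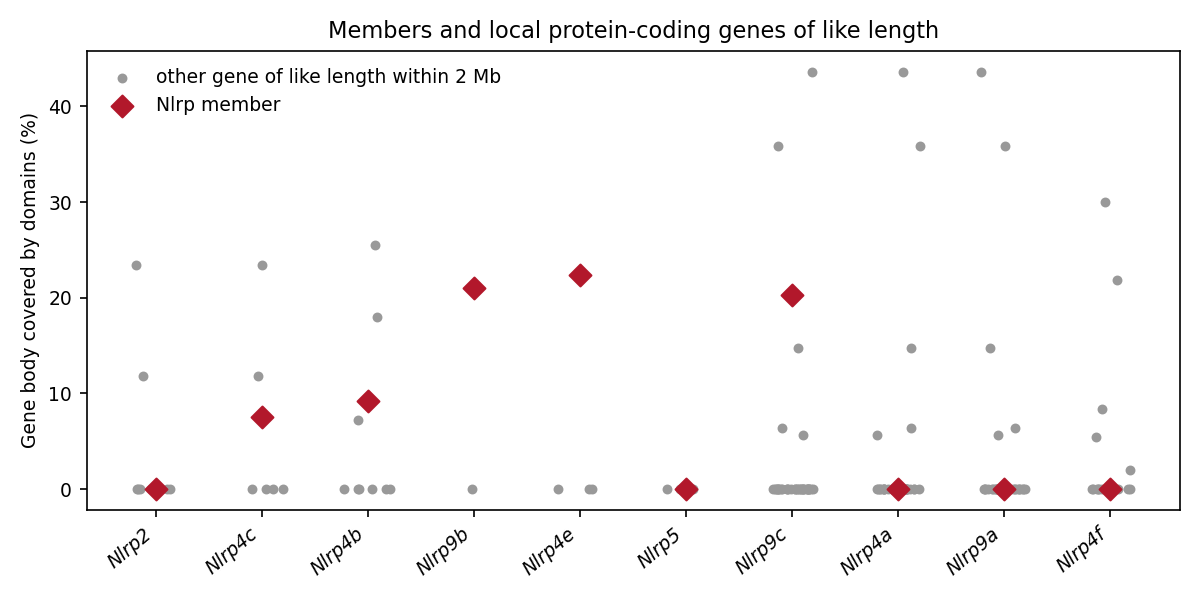
Share of each gene body in domains, in percent, for the 10 members (red diamonds) and for the protein-coding genes of like length within 2 Mb of each (grey points, spread sideways for visibility). Nlrp4e and Nlrp9b lie above their 3 and 1 local genes, and Ceacam2 at 43.6% lies above every member.

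Overlap with domains was not limited to the oocyte members of the family. Of 18 other NLR genes, most of them known from innate immunity, 11 (61.1%) met a domain, and 5.30% of their sequence was covered. Of all protein-coding genes, 14.1% met a domain. The 18 genes, too, were listed with earlier results of these data known, so nothing is read from the gap between these shares. Among the 18, Naip5, a sensor of bacterial flagellin, had the largest covered share with 22.2%, close to Nlrp4e. The other Naip genes also met domains, at 7.61% in Naip6, 6.99% in Naip1 and 5.43% in Naip2. Nod1, a sensor of bacterial peptidoglycan, had 12.9%, Nlrp1a 9.96%, Nlrp1b 5.84%, Nlrc5 4.52%, Nlrp3 4.14% and Nlrp12 2.41%. Nlrp14, a germline member of the family on chromosome 7 that is not among the 10, had 1 domain over 1.95% of its body. Of the 11 other NLR genes within the length range of the members, 7 met a domain, where 16.6% of the 4262 protein-coding genes in that range did. Nlrp6, Nlrp10, Nod2, Nlrx1, Nlrc3, Nlrc4 and Ciita met none.

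A further 4 genes carry an Nlrp name. The pseudogenes Nlrp5-ps (3 domains, 5.19% covered) and Nlrp1c-ps (1 domain, 7.01%) met domains, and the pseudogene Nlrp4d and the gene Nlrp4g, annotated as protein-coding, met none. No share over genes of like kind and length is given, so nothing is read from this division.

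Of 24 other genes of the oocyte, 1 (4.17%) met a domain, where 14.1% of all protein-coding genes did. It was Oosp1, which encodes a secreted oocyte protein, with 2.40 kb or 10.2% covered. Partners of Nlrp5 in the subcortical maternal complex, Tle6, Ooep, Khdc3 and Padi6, had none, and neither did the zona pellucida genes Zp1, Zp2 and Zp3, the growth factor genes Gdf9 and Bmp15 or the regulators Nobox and Figla. These 24 genes are short, at 1.45 to 24.3 kb with a median of 6.75 kb, and none reaches the length of the shortest Nlrp member. Their count therefore cannot be set against that of the members at like length. The share among all genes of their length was not computed, so nothing is read from the count.

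**Figure D4:**
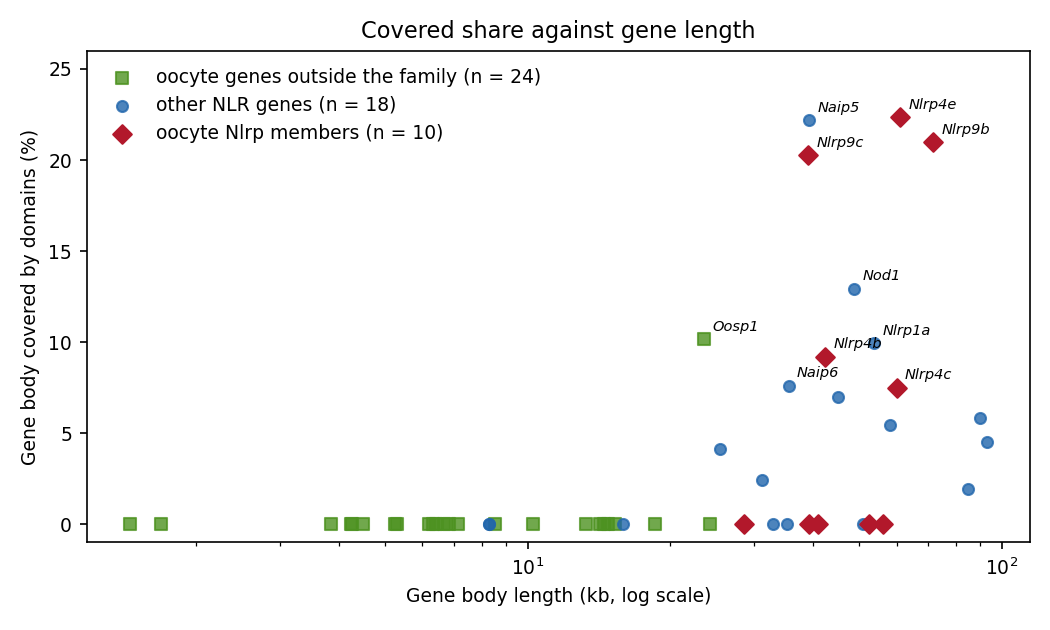
Covered share in percent against gene length in kb on a log scale for the 10 members (red diamonds), 18 other NLR genes (blue circles) and 24 other oocyte genes (green squares). Members and other NLR genes overlap in length and in covered share, with Naip5 at 22.2% beside Nlrp4e at 22.3%, while the other oocyte genes are shorter and all but Oosp1 lie at 0.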

How the data were processed

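The deposited file is 1 list of chromosome, start and end. Per the file name, the domains are the authors' output of RSEG, which segments a genome into broad enriched regions. The submitters' processing notes name bedtools, deepTools, Bowtie2 2.3.4.1 and SAMtools 1.1, with no role. The sources used here do not give the RSEG version, its threshold or the libraries behind the list, and its depth is unknown. Contig names are those of mm10, so genes were taken from the RefSeq table of GRCm38.p6, and the 49214 genes that start at or after 3 Mb on chromosomes 1 to 19 and X were used. Strand came from the RefSeq promoter table. Domain starts were converted to count from 1, and 1 shared base counted as meeting a domain.

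The 12 samples were grouped by time but enter no comparison. The members and gene lists were chosen with earlier results of these data known, so values are descriptive. All 10 members were named, with every listed NLR or oocyte gene that met a domain, the 4 local genes of like length with the largest covered share, and Krt8-ps and cluster neighbours, which were chosen after their values were seen. Promoters were aligned globally with free end gaps (Biopython 1.88). The overlap code was tested on simulated data. Python 3.11.15, numpy 2.4.6, pandas 2.3.3 and matplotlib 3.10.9 were used.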

Additional observations from a re-analysis of the deposited data

How the results depend on the processing

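The list has no scores or samples, so depth and thresholds of the domain calls could not be varied. No paired analysis was possible because the list names no sample. The count of 5 members was 5 with domains closer than 5 kb merged, 4 with only domains at or above the median width (Nlrp4c was lost) and 7 with bodies widened by 5 kb (Nlrp5 and Nlrp4a were added). It fell to 3 with at least 10% of the body covered (Nlrp9b, Nlrp4e and Nlrp9c) and to 1 at 1 kb either side of the gene ends (Nlrp9c). Of the 77 local genes of like length, 9 had at least 10% of the body covered. For merged domains, widened bodies and gene ends no share over other genes is given, so nothing is read from those counts. The covered share of 9.15% was 9.73% with domains merged, 7.53% with wide domains, 10.1% with bodies widened (Nlrp9c rose from 20.3 to 35.4% and passed Nlrp4e) and 8.24% from the starts of the promoter table, a setting chosen after seeing the data that left the count at 5. Local genes of like length met a domain in 18.3 to 23.9% of cases with other windows, lengths or biotypes, and in 14.3% with wide domains only. Their covered share of 3.42% was 4.66% within 5 Mb and 2.20% over the same chromosome. Since the members were chosen with the overlap known, nothing is read from the gap to their share.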
